A study of Homo sapiens with 10 samples.

Results

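The regions described here are the broad accessible regions of untreated SLFN11-knockout CCRF-CEM cells, chosen by the measured width of their peaks. Peaks of all 10 deposited lists on chromosomes 1 to 22 and X were pooled, and those sharing 1 bp or more made up one of 35505 regions. A region counted as broad when its longest peak in the list of the DMSO-treated knockout library spanned at least 1200 bp. That list called 19954 regions, of which 1024 (5.13%) were broad. The other 18930 regions of the same list are the comparison used throughout. Because the width in that list chose the regions, their width, summits and height there are a description and are supported by no test.

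Open chromatin is usually a short stretch, about as long as a promoter or an enhancer stripped of its nucleosomes. Broader open stretches arise where several such elements sit side by side, as at the promoters of highly transcribed genes, at paired promoters and at clustered enhancers, and they are often held open in many cell types. A peak caller draws 1 peak where the signal stays above its threshold and marks a summit at each local maximum, so a broad peak can hold 1 dome of signal or a row of neighbouring maxima.

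The assay was ATAC-seq, where a transposase cuts and tags open DNA, and the cells were CCRF-CEM, an established human T-lymphoblast leukemia line. The parental cells are wild-type and carry SLFN11, a protein that acts at stressed replication forks, and the second line lacks SLFN11 through a knockout. Both received DMSO, 100 nM of prexasertib, an inhibitor of the checkpoint kinase CHK1, for 2, 4 or 6 h, or 100 nM of camptothecin, a topoisomerase I poison, for 4 h. Each of these 10 groups has 1 library, so no test between groups was possible and the intervals below cover counting error over regions only. The sources used here do not say whether the knockout line is 1 clone. For the parental library treated with prexasertib for 4 h, the raw reads are recorded as truncated. Build hg19 was used by the submitters, and no annotation of that build was used here, so regions are named by position only, and neither the SLFN11 locus nor T-cell marker genes could be used to check the labels.

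Read totals were not given, and the genome-wide background pileup recovered from each list serves as the measure of depth. It was 1.63, 1.48, 1.33, 1.52 and 1.45 in the parental DMSO, 2 h, 4 h and 6 h prexasertib and camptothecin lists, and 1.59, 2.1, 1.85, 1.99 and 1.74 in the knockout lists in the same order. That order of lists is kept below wherever 5 values are given for a line. The treated knockout libraries thus had a higher background pileup than all 5 parental ones. A pileup also depends on the length given to each read, which is not known here. The part of depth in the widths below was not tested.

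In the knockout DMSO list the broad regions were mostly rows of summits and seldom single domes. Their peaks held 2.49 summits on average, against 1.20 in the other regions. Per length they held fewer, with a median of 1.62 summits per kb against 2.22, so the higher number went with the width that chose the regions. Of the 1024 peaks, 199 (19.4%) had 1 summit, 353 (34.5%) had 2, 310 (30.3%) had 3, 117 (11.4%) had 4 and 45 had 5 or more. A single summit was the rule in the other regions, at 82.4%. Width ran from 1200 to 3266 bp with a median of 1353.5 bp, with an interquartile range from 1262 to 1507.5 bp, so most exceeded the minimum by little. Peaks with more summits were wider, from a median of 1270 bp with 1 summit to 1512 bp with 4. The most summits, 10, 9 and 7, were in the 3 widest regions, described with them. At chr5:149109569-149111477 a peak of 1909 bp held 7 summits, and the longest peak of the other 9 lists held 2 to 4. The narrowest of these 5 was chr1:142537341-142538905, with 7 summits in 1299 bp and 2 to 7 in the other lists. It lies 1600 bp from a long stretch without regions, as described with the positions.

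Neighbouring summits were farther apart in broad peaks than in others, which the rule itself favours because a short peak cannot hold distant summits. The median spacing was 362 bp over 1527 pairs, with an interquartile range from 255 to 517 bp, against 260 bp over 3802 pairs in the other regions. From first to last summit the 825 broad peaks with more than 1 spanned a median of 723 bp, and a further 678 bp lay outside the outermost summits. Within such a peak the summits were often of like height. The highest recovered summit was a median of 1.52 times the lowest over the same 825 peaks, and in 408 of them (49.5%) the ratio was no more than 1.5.

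**Figure D1:**
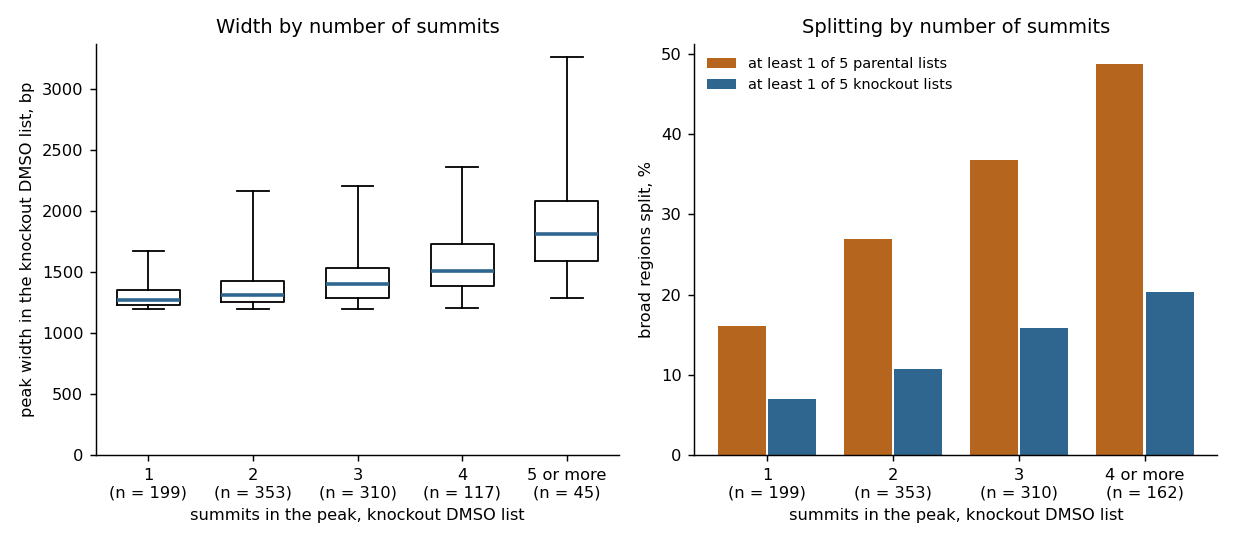
Left, width of the longest peak in the knockout DMSO list (bp) by its number of summits, as medians, interquartile ranges and full ranges of the 1024 broad regions. Right, percent of broad regions held by more than 1 peak in at least 1 parental (orange) or knockout (blue) list, by the same number of summits. Both width and splitting were higher with more summits, with parental splitting at 16.1% for 1 summit and 48.8% for 4 or more.

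The 199 broad peaks with 1 summit were somewhat taller than those with 2, 3 or 4. Height is given as the summit pileup divided by the library's background pileup. Its median was 43.9 times background with 1 summit, 37.6 with 2, 35.7 with 3 and 34.5 with 4. In these single domes the summit stood a median of 491 bp from the nearer edge, against 165 bp in single-summit peaks of the other regions. The rule asked for width, so a longer distance followed from it. Over peaks of any summit number, the median distance of the highest summit was 33.3% of the width in broad regions and 36.3% in the others. The widest single dome, chr1:209941295-209943093, had a peak of 1677 bp with 1 summit 19.4 times background. It was 1648 bp with 3 summits in the knockout 2 h list and 1753 bp with 4 in the 6 h list, but between 592 and 876 bp in all 5 parental lists and 768 and 392 bp in the knockout 4 h and camptothecin lists. The next, chr10:76584996-76586873, was 81.5 times background and 1660 bp wide, and had 2 to 4 summits in the other knockout lists and 1 to 3 in the parental ones. The summit number of a broad region therefore varied between libraries, and the 3 others named by the same rule, chr6:153303439-153305433, chr20:3387744-3389560 and chr9:86322022-86323632, also had more than 1 summit in at least 1 other list.

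Broad regions were tall regions, and width and height went together across the list as a whole. The median height was 37.6 times background over the 1024 broad regions and 15.7 times over the others, and only 37 broad regions (3.61%) lay below the latter value. Over all 19953 regions of the list with a recovered height, width and height had a Spearman correlation of 0.71, and among the broad regions alone it was 0.11. The rule left a narrow range of widths among the broad regions, which lowers such a correlation, so the 2 values cannot be compared. Of the other regions, 2211 (11.7%) reached the median height of the broad ones, and their median width was 864 bp. The deposited fold, which divides the summit by the background around it, differed less, with medians of 6.28 and 5.70. The background around the summits was itself raised, at a median of 5.52 times the genome-wide value at summits of broad regions and 2.37 times at the others. This was so in all 10 lists, with medians from 4.47 to 6.70 against 2.25 to 2.94.

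The 10 widest regions fall into kinds that behaved differently across the lists. The widest, chr6:58776264-58779538, was 1 peak in all 10 lists and hardly changed in width. Its peak was 3216, 3243, 3233, 3219 and 3237 bp in the parental lists and 3266, 3246, 3249, 3231 and 3251 bp in the knockout lists, with 5 to 10 summits. Its height was 701, 699, 619, 571 and 644 times background in the parental lists and 729, 773, 690, 822 and 850 in the knockout lists, beside a fold of only 4.02 to 4.4. It lies at the end of a long stretch without regions, where copied sequence may add to the pileup, as described with the positions. Second was chr16:46403479-46407098, with a longest peak between 1524 bp (parental 6 h) and 3615 bp (knockout camptothecin). In knockout DMSO it was 199 times the genome-wide background but had a fold of 2.63 over its own surroundings. It too lies near such a stretch, 16781 bp away. It lay in 1 peak in 4 lists, in 2 in 3 lists and in 3 in 3 lists.

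Another constant region was chr10:17270102-17272602, which was 1 peak of 2317 to 2485 bp in all 10 lists while its height ranged from 33.9 times background in knockout camptothecin to 76.8 in parental camptothecin. Similarly, chr7:56438231-56440718 measured 2344 to 2488 bp in 9 lists and was split only in the knockout 4 h list, where its longest peak was 1411 bp. In the lists where these regions were 1 peak, their heights varied more than their widths.

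A different kind was 1 peak in most knockout lists and several in the parental ones. The third widest, chr8:101962640-101965363, was a single peak of 2568, 2640, 2700 and 2509 bp in the knockout DMSO, 2 h, 4 h and 6 h lists, with up to 9 summits. In the parental lists it was 2, 2, 2, 2 and 3 peaks, the longest 1579, 1100, 1632, 1484 and 1222 bp, and the knockout camptothecin list also had 2. Likewise, chr12:89745679-89748206 was 2 peaks in all 5 parental lists, the longest from 707 to 1074 bp. In 4 knockout lists it was 1 peak of 2279 to 2475 bp, and in knockout camptothecin it was again 2, the longest 959 bp. Its height was 33.7, 29.8, 57.3, 61.7 and 55.3 times background in the parental lists and 37.0, 45.7, 49.2, 40.6 and 40.8 in the knockout lists, so the split lists held both lower and higher summits.

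Parental DMSO alone stood apart at chr17:8124213-8126862, where it had 2 peaks, the longest 1088 bp, against 1 peak of 1883 to 2505 bp in the other 9 lists. For chr17:4850842-4853348 the longest peak was 1297, 1241, 1690, 2114 and 2174 bp in the parental lists and 2323, 2388, 1937, 2282 and 1891 bp in the knockout lists. The parental 6 h and camptothecin values overlapped those of the knockout lists there, and the other 3 parental values did not. The last of the 10, chr8:46848222-46850440 and chr10:42398516-42400750, also lie beside long stretches without regions and are described with the positions.

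Broad regions were called in nearly every list. Of 1024, 1008 were called in parental DMSO (98.4%, 95% interval 97.5% to 99.1%), 1007 at 2 h, 1016 at 4 h, 1022 at 6 h and 1020 with camptothecin. The shares over all 19954 regions of the knockout DMSO list, broad ones included, were 71.3%, 70%, 76.8%, 84.7% and 84%. In the treated knockout lists 1024, 1022, 1024 and 1020 broad regions were called, beside 90.6%, 86.5%, 88.7% and 80.8% of all regions. All 10 lists called 993 broad regions (97.0%) and 10610 of the others (56.0%). The gap was smaller against regions of like fold. Of 5795 other regions with a fold between 5.28 and 7.23, the interquartile range of the broad ones, 80.9% were called in parental DMSO. These were alike in fold only, with a median width of 598 bp and a median height of 16.9 times background.

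The 16 broad regions not called in parental DMSO were low for the class, with a median height of 16.3 times background and a median width of 1274 bp in knockout DMSO. All 16 were called in at least 1 treated parental list and 12 in all 5 knockout lists. The widest was chr3:176914245-176915983, 1504 bp wide and 30.7 times background in knockout DMSO, which measured 567, 603, 1189 and 751 bp in the treated parental lists. At chr1:27691951-27693565 the width was 1498 bp in knockout DMSO and 632, 763, 721 and 768 bp in the treated parental lists. The third, chr16:30482687-30484720, was 1494 bp wide in knockout DMSO but 774, 595 and 1119 bp in the knockout 2, 4 and 6 h lists and not called with camptothecin, so it reached 1200 bp only in the list that chose it. The remaining pair that the naming rule gave, chr10:17495453-17496896 and chr12:125477510-125478909, were called in the 6 h and camptothecin parental lists only, at 178 and 350 bp and at 736 and 680 bp, and in all 5 knockout lists at 1155 bp or more.

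The median width of the broad regions was lower in each of the 5 parental lists than in each knockout list. It was 1086.5, 1054, 1139, 1214 and 1232.5 bp in the parental lists and 1353.5, 1406, 1364.5, 1394 and 1272 bp in the knockout lists. The number that again reached 1200 bp was 363, 344, 439, 532 and 556 in the parental lists and 861, 804, 828 and 624 in the treated knockout lists. The 3 prexasertib-treated knockout lists had as wide a median as the list that chose the regions, and knockout camptothecin was the lowest of its line. Over the other regions the medians were 529, 532, 558, 602 and 601 bp in the parental lists and 542, 697.5, 651, 669 and 591 bp in the knockout lists. The lists also differed in wide peaks as a whole. In all, 468, 452, 647, 948 and 988 regions of any kind reached 1200 bp in the parental lists and 1024, 1833, 1388, 1598 and 910 in the knockout lists.

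**Figure D2:**
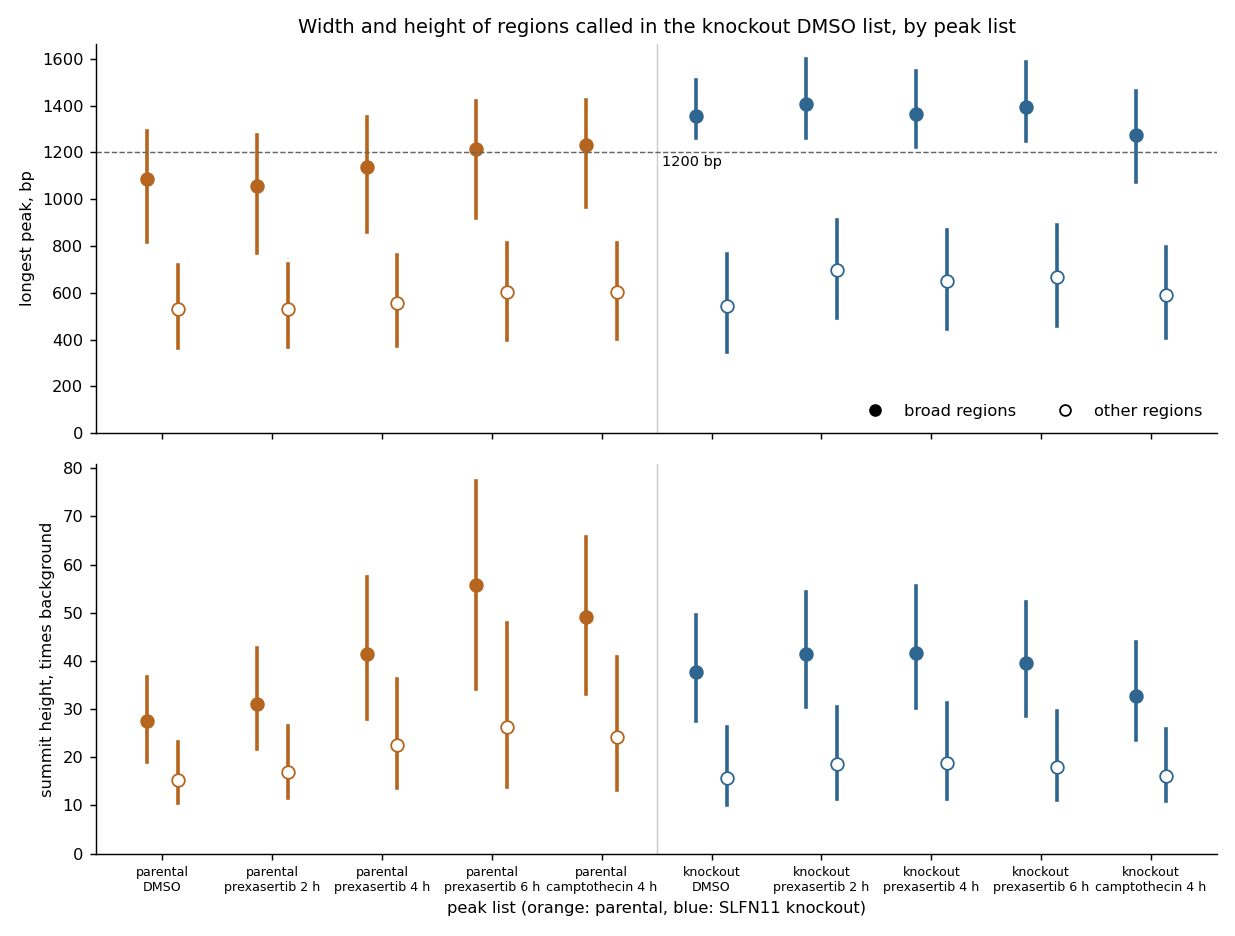
Top, longest peak per region (bp), and bottom, summit height (times the background pileup of the library), in each of the 10 peak lists, for the 1024 broad regions (filled) and the 18930 others (open), with points at the median and bars over the interquartile range. The dashed line marks 1200 bp. Median width of broad regions stayed between 1054 and 1232.5 bp in parental and between 1272 and 1406 bp in knockout lists, while the highest median height was that of the parental 6 h list at 55.8 times background.

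Height did not follow width across the lists. Broad regions had a median height of 27.5, 31.1, 41.5, 55.8 and 49.1 times background in the parental lists and 37.6, 41.4, 41.6, 39.6 and 32.8 in the knockout lists. The parental 6 h and camptothecin lists were thus the highest of all 10 and yet had narrower broad regions than the 3 knockout prexasertib lists. The regions were chosen by their width in a knockout list, which favours wider values in that line. Within the parental line both medians were higher at 4 h, 6 h and with camptothecin than with DMSO or at 2 h. In the knockout line camptothecin had the lowest of both. In the other regions the medians were 15.3, 16.9, 22.6, 26.2 and 24.2 in the parental lists and 15.7, 18.6, 18.9, 18.1 and 16.1 in the knockout lists.

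The order of widths among the broad regions was shared more closely within the knockout line. With the width in knockout DMSO, the width in the other knockout lists had Spearman correlations of 0.61, 0.57, 0.62 and 0.47 over the 1020 to 1024 regions called in both, and the parental lists had 0.33, 0.29, 0.30, 0.30 and 0.30 over 1007 to 1022. Over all regions called in both lists the values were 0.68 to 0.73 for the parental and 0.77 to 0.80 for the knockout lists. These are descriptions across regions of single libraries, which share the chosen list.

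Splitting, meaning that a list held 2 or more peaks in 1 region, was several times more frequent in broad regions than over all regions of a list. The rule itself favours this. Separate peaks of a list share a region only where peaks of other lists bridge them, and a long peak does so more readily. The excess over all regions is therefore a description. In parental DMSO 99 of the 1008 called broad regions (9.82%, 95% interval 8.05% to 11.8%) were split, beside 1.5% of all 14231 regions called in both lists. At 2 h, 4 h, 6 h and with camptothecin in parental cells 98 (9.73%), 147 (14.5%), 187 (18.3%) and 169 (16.6%) were split, beside 1.63%, 2.61%, 3.58% and 3.19% of all regions. The treated knockout lists had 33 (3.22%), 58 (5.68%), 37 (3.61%) and 72 (7.06%), beside 0.902%, 1.48%, 1.33% and 1.57%. Each parental share lay above each knockout share, although the intervals of the closest pair, parental 2 h (7.97% to 11.7%) and knockout camptothecin (5.56% to 8.81%), overlapped. In knockout DMSO 20 (1.95%) were split, but there the rule had asked for a long peak. The other regions of fold 5.28 to 7.23 were split in parental DMSO at 0.92%, about the same as all others at 0.86%. With a median width of 598 bp they were not of like width to the broad regions.

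The caller joins stretches of signal up to a distance that can be read from each list, because the smallest gap between neighbouring peaks was 1 bp more than the smallest peak in all 10. This joining distance was 199, 202, 179, 160 and 175 bp in the parental lists and 196, 208, 192, 194 and 202 bp in the knockout lists, and the parental lists with the shorter distance were those with more splitting. When peaks in every list were joined up to 208 bp, 1032 regions were broad. Splitting was then 9.75%, 9.46%, 13.4%, 15.2% and 14.8% in the parental lists and 1.74%, 3.29%, 5.44%, 3.20% and 6.91% in the knockout lists. The largest difference was at 6 h, with 15.2% in place of 18.3%, and the parental shares were all still above the knockout ones. This alternative was chosen after seeing the data. Splitting was less frequent without weak summits: counting only summits whose −log10 q reached 10, it was 1.92% in parental DMSO and 7.72% at 6 h.

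**Figure D3:**
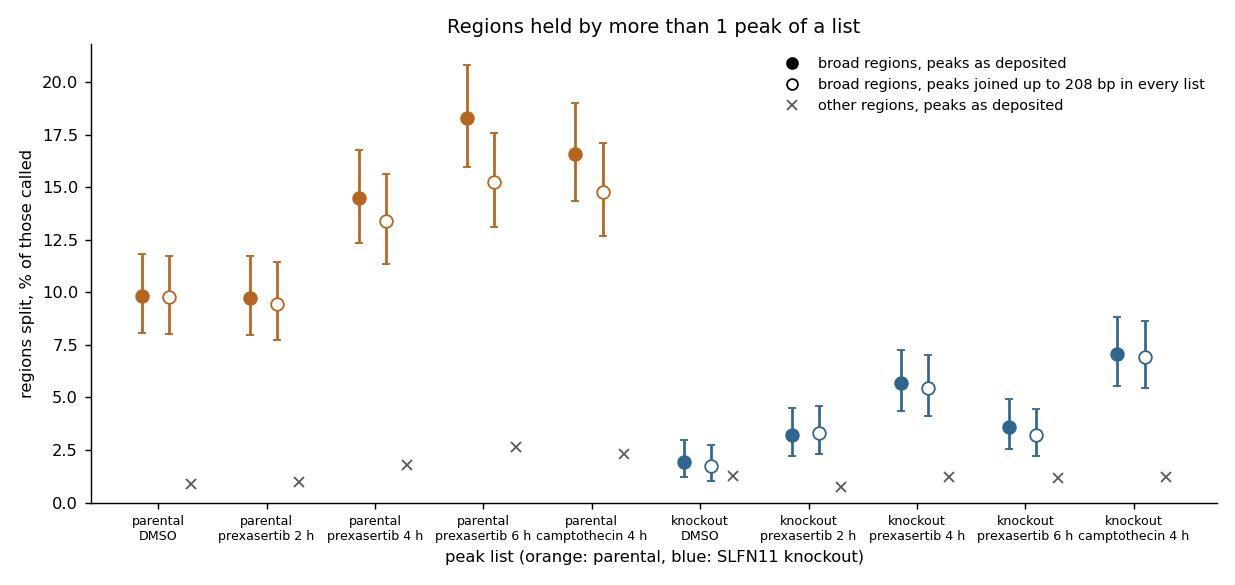
Percent of called regions held by more than 1 peak, in each of the 10 lists, with exact 95% intervals for the broad regions. Filled points are peaks as deposited, open points are peaks joined up to 208 bp in every list, and crosses are the other regions. Parental lists (orange) ran from 9.73% to 18.3% as deposited and knockout lists (blue) from 1.95% to 7.06%, with other regions no higher than 2.63%.

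Over all lists 667 broad regions (65.1%) were never split, 126 were split in 1 list and 51 in at least 5. At least 1 parental list split 320 (31.2%) and at least 1 knockout list 134 (13.1%). Of these, 97 belonged to both sets, which is 30.3% of the parental set and 72.4% of the knockout set. In the other regions the shares were 4.24% and 3.05%. All 5 parental lists split 23 broad regions, 13 of them with no split in any knockout list. The share split by at least 1 parental list was 16.1% for peaks of 1 summit, 26.9% for 2, 36.8% for 3 and 48.8% for 4 or more, and it was 21.9% for regions of 1200 to 1299 bp and 56.6% for those of 1700 bp or more.

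Where the peak of knockout DMSO was covered by 2 or more peaks of another list, the gap between them was short. Its median was 342, 347, 331, 321 and 345 bp in the parental lists and 278, 319, 279 and 318 bp in the treated knockout lists. Such a gap runs from peak edge to peak edge and is always longer than the joining distance, so it cannot be set against the spacing of summits. The longest peak of a split region in parental DMSO had a median of 643 bp, and the same regions a median of 1512 bp in knockout DMSO. Only 1 region, chr19:7933430-7935808, was split in all 10 lists, with a longest peak from 687 to 1631 bp. The most peaks, 22 over the 10 lists, were at chr21:10085346-10087774, with 3, 3, 2, 3 and 2 in the parental lists and 2, 2, 2, 2 and 1 in the knockout lists. Its longest peak was 543 to 973 bp in the parental lists and 1029 to 2236 bp in the knockout lists. Next was the region split in all lists, chr19:7933430-7935808, with 20 peaks. After it came chr16:46403479-46407098, chr6:27832777-27835434 and chrX:153191740-153194098 with 19 peaks each, and the last of these was 1 peak of 2276 bp in the knockout 2 h list alone.

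The peaks of broad regions were shorter in parental DMSO than in knockout DMSO at both edges alike, and by far less in the parental 6 h and camptothecin lists. The parental DMSO peak began a median of 72.5 bp inside the left edge of the knockout DMSO peak and ended 77.5 bp inside the right edge. It lay inside on both sides in 595 of 1008 regions (59.0%). The share was 58.0% at 2 h, 43.3% at 4 h, 29.0% at 6 h and 25.2% with camptothecin in parental cells. In the treated knockout lists it was 13.8%, 19.9%, 16.1% and 34.7%. Median distances inside the left and right edges were 73 and 78 bp at 2 h and 34 and 38 bp at 4 h in parental cells. They were 7 and 8 bp at 6 h and 1 and 5 bp with camptothecin, against 16 and 16 bp in knockout camptothecin. The peak of knockout DMSO was chosen for its width, so these values are a description.

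In parental cells the treated lists differed from DMSO more in the median height of broad regions than in their median width. The 4 comparisons with parental DMSO share that library, and none of the 5 lists chose the regions. Median log2 width changes were -0.02, 0.07, 0.16 and 0.15 for 2 h, 4 h and 6 h prexasertib and for camptothecin, over 997 to 1008 regions, with medians of 0.003, 0.09, 0.23 and 0.22 over all regions called in both lists. Median log2 height changes were 0.15, 0.58, 0.98 and 0.80, against 0.15, 0.59, 0.96 and 0.78 over all regions. The median height change of broad regions was thus close to that of the whole list. The median width change was below that of the whole list in all 4 comparisons. With the deposited fold in place of the height, the medians at 6 h and with camptothecin were 0.40 and 0.28. In regions chosen by width in parental DMSO the median width changes were both 0.02, in place of 0.16 and 0.15.

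In counts past 1.5-fold, changes of height outnumbered those of width at 4 h, at 6 h and with camptothecin, but not at 2 h. At 2 h 75 broad regions (7.52%) were wider by that much, beside 10% of all regions, and 118 (11.8%) were narrower, beside 10.4%. For 4 h 116 (11.6%) were wider, beside 14.7%, and 86 (8.57%) narrower, beside 8.01%. By 6 h 138 (13.7%) were wider, beside 22.7%, and 71 (7.04%) narrower, beside 6.17%. With camptothecin 167 (16.6%) were wider, beside 22.6%, and 56 (5.56%) narrower, beside 5.42%. Summits were at least 1.5 times higher in 52 (5.22%) at 2 h, beside 10.1%, in 490 (48.8%) at 4 h, beside 50.2%, in 811 (80.5%) at 6 h, beside 70.7%, and in 740 (73.5%) with camptothecin, beside 66.3%. At most 13 broad regions in 1 comparison were lower by as much. The share of broad regions with higher summits was thus below that of all regions at 2 h, near it at 4 h and above it at 6 h and with camptothecin.

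**Figure D4:**
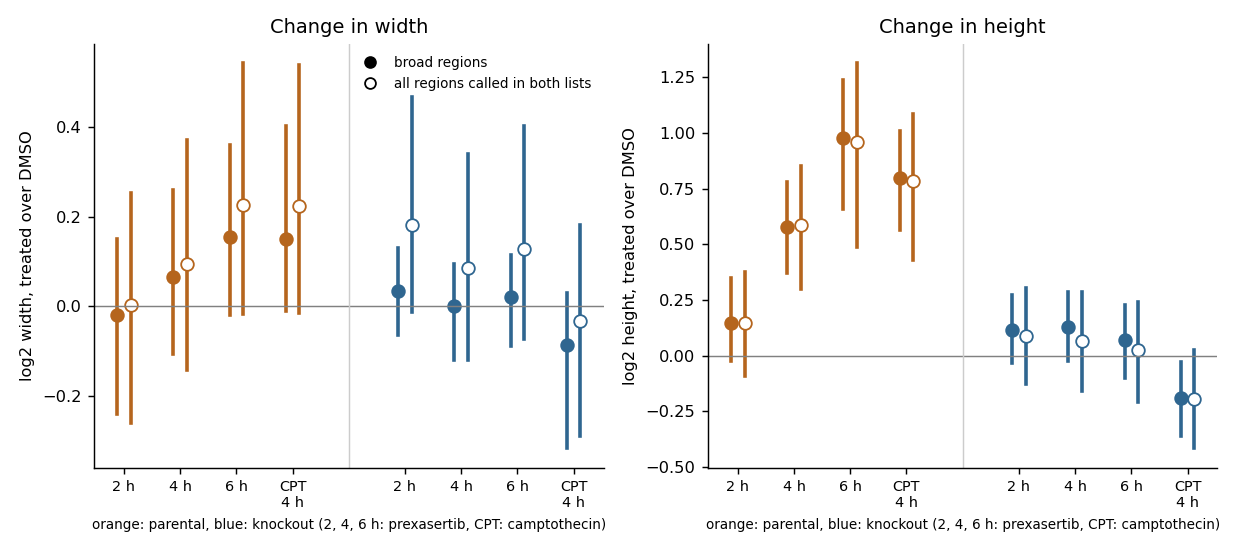
Log2 change of the longest peak (left) and of the summit height (right), treated over DMSO of the same line, for broad regions (filled) and for all regions called in both lists (open), as medians with bars over the interquartile range. In parental cells (orange) the height of broad regions reached a median of 0.98 at 6 h and the width 0.16, and in knockout cells (blue) both medians were between -0.19 and 0.13 for broad regions.

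Single regions differed more between the parental lists. At chr17:65373068-65375113 the longest peak was 223 bp in parental DMSO and 1361, 1802, 2046 and 1744 bp in the treated parental lists, and 1741 to 2037 bp in the knockout lists. At chr7:158768443-158769969 it was 248 bp and then 718, 774, 1366 and 1383 bp, and the height went from 11 to 16.9, 18.9, 27.6 and 20.8 times background. At chr1:161014824-161016116 the 422 bp peak, 1 of 2 in parental DMSO, became 1 peak of 1168 to 1230 bp. The others named for a gain, chr15:75742868-75744629 and chr9:35603958-35605712, went from 574 and 510 bp to at least 1451 and 1166 bp.

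Where the treated parental lists were narrower, the peak was often broken. At chr17:42295812-42297676 the longest peak was 1836 bp in parental DMSO and 377, 379, 487 and 469 bp in the treated parental lists, which held 1, 2, 3 and 2 peaks. Its height was not lower there, at 20.8 times background in DMSO and 26.4, 29.4, 42.6 and 27.7 after treatment, and in the knockout lists it was 1 peak of 1642 to 1833 bp throughout. At chr4:174089400-174091377 the parental DMSO peak of 1830 bp stood against 2 peaks in each treated list, the longest 723, 841, 723 and 820 bp, and the knockout lists held 1 peak of 1766 to 1962 bp. At chr3:128839276-128841244 and chr5:49428998-49430463 the width was 1812 and 1383 bp in parental DMSO and at most 638 and 667 bp in the treated parental lists. The first had a longest peak of 1053 to 1897 bp in the knockout lists. The second was also broken in the treated knockout lists, with 2 peaks each, the longest 627 to 650 bp, against 1457 bp in knockout DMSO. It lies 23303 bp from a long stretch without regions, as described with the positions. At chr1:243670782-243672351 it was 1039 bp and then 222 to 446 bp in 1 peak per list, and the treated knockout lists were also narrow there, at 484 to 951 bp against 1570 bp in knockout DMSO. These 10 regions were picked for their changes, so their values are examples and no evidence of a change.

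In the knockout cells the changes can only be described, because the DMSO library in each of these comparisons also chose the regions. That choice makes the width changes read low. Median log2 width changes were 0.03, -0.0003, 0.02 and -0.09, and height changes 0.12, 0.13, 0.07 and -0.19, for 2 h, 4 h and 6 h prexasertib and for camptothecin. Over all regions the medians were 0.18, 0.09, 0.13 and -0.03 for width and 0.09, 0.07, 0.03 and -0.20 for height.

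Set against the parental list of the same treatment, knockout lists had wider broad regions for prexasertib at every time and about equal ones for camptothecin. The median log2 width of knockout over parental was 0.31 with DMSO, the contrast that holds the choosing list, and 0.38, 0.23, 0.15 and 0.006 with the treatments. Over all regions called in both lists it was 0.21, 0.40, 0.21, 0.11 and -0.05. Counts of broad regions wider by 1.5-fold were 321 (31.8%), 383 (38.0%), 273 (26.9%), 253 (24.8%) and 156 (15.3%), beside 23.1%, 36.3%, 23.5%, 19.8% and 11.6% of all regions, so the treated contrasts stood only slightly above the background. Median log2 heights of knockout over parental broad regions were 0.44, 0.40, 0.003, -0.43 and -0.53, so the knockout summits were higher in the DMSO and 2 h pairs and lower in the 6 h and camptothecin pairs. Summits were at least 1.5 times higher in knockout for 335 (33.2%), 277 (27.5%) and 67 (6.61%) with DMSO and at 2 and 4 h, beside 30.7%, 26.1% and 5.94%. They were lower by as much for 351 (34.4%) at 6 h and 456 (44.8%) with camptothecin, beside 40.3% and 48.4%.

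The choice of the list mattered for the difference between the lines. When regions were chosen by the same width in parental DMSO instead, there were 468, of which 363 were also broad in knockout DMSO. That is 77.6% of the parental choice and 35.4% of the knockout one. In these 468 the median log2 width of knockout DMSO over parental DMSO was 0.02, not 0.31, although parental DMSO had been chosen as wide. Their widths in treated parental lists had medians of 1241, 1300.5, 1368.5 and 1372.5 bp, and in treated knockout lists 1482.5, 1436, 1472.5 and 1381.5 bp. Of these regions 8.55%, 12.8%, 12.8% and 14.3% were split in the treated parental lists and 1.71%, 4.28%, 3.21% and 4.70% in the treated knockout lists. In the DMSO pair the order turned around: 2.14% were split in parental DMSO, where the rule had asked for a long peak, and 4.49% in knockout DMSO. Parental DMSO then also lay below the treated knockout lists other than the 2 h one. More splitting in the parental list than in the knockout list of the same treatment was thus seen with either choice for the 4 treatments, and for DMSO only with the knockout choice. This alternative was also chosen after seeing the data.

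Breadth was shared to very different degrees. In all 10 lists 170 regions (16.6%) reached 1200 bp, and 57 (5.57%) did so in knockout DMSO alone. The former were wider, taller and richer in summits in knockout DMSO, with a median of 1522 bp, 46.1 times background and 3.09 summits on average, against 1250 bp, 24.5 times and 1.84. In parental DMSO their median widths were 1413.5 and 745 bp. In no parental list did 308 (30.1%) reach 1200 bp, and 90 of the 1024 (8.79%) did so in all 5 knockout lists and in no parental list. All 4 treated knockout lists kept 537 (52.4%) at 1200 bp or more, and none of the 4 did so for 71 (6.93%). Of regions of 1200 to 1299 bp, 17.5% reached the minimum again in parental DMSO, and of those of 1700 bp or more 64.6% did.

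The minimum of 1200 bp cut through a continuous range. The 5 regions just above it, each with a peak of 1200 bp, were chr3:107809276-107810650, chr5:142381564-142382763, chr7:39988726-39990497, chr16:29910612-29912075 and chr19:506656-507964, with heights of 7.53 to 60.8 times background. Just below lay chr1:29062991-29064256, chr2:135809544-135810922, chr17:7760319-7761779 and chr18:51883490-51884971 with 1199 bp and chr1:234745831-234747468 with 1198 bp, at 27.6 to 42.6 times. The 96 regions of 1200 to 1219 bp and the 104 of 1180 to 1199 bp had median widths of 980 and 977.5 bp in parental DMSO, mean summits of 1.89 and 1.96 and median heights of 36.4 and 33.5 times background.

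Broad regions were found on every chromosome in numbers that mostly followed the regions called there. Chromosome 1 held 93 and chromosome 2 held 89. Shares among called regions were highest on chromosome 13, at 34 of 423 (8.04%, 95% interval 5.63% to 11.1%), on chromosome 18, at 25 of 334 (7.49%, 4.90% to 10.9%), and on chromosome 6, at 74 of 993 (7.45%, 5.90% to 9.27%). They were lowest on chromosome 22, at 14 of 443 (3.16%, 1.74% to 5.25%), and on chromosome 19, at 36 of 1085 (3.32%, 2.33% to 4.56%). The intervals of chromosomes 6, 13 and 19 did not include the 5.13% of all chromosomes, and those of 18 and 22 did. Chromosome 19 had the highest median height of its regions, 20.1 times background, and its low share of broad regions therefore did not go with low peaks.

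**Figure D5:**
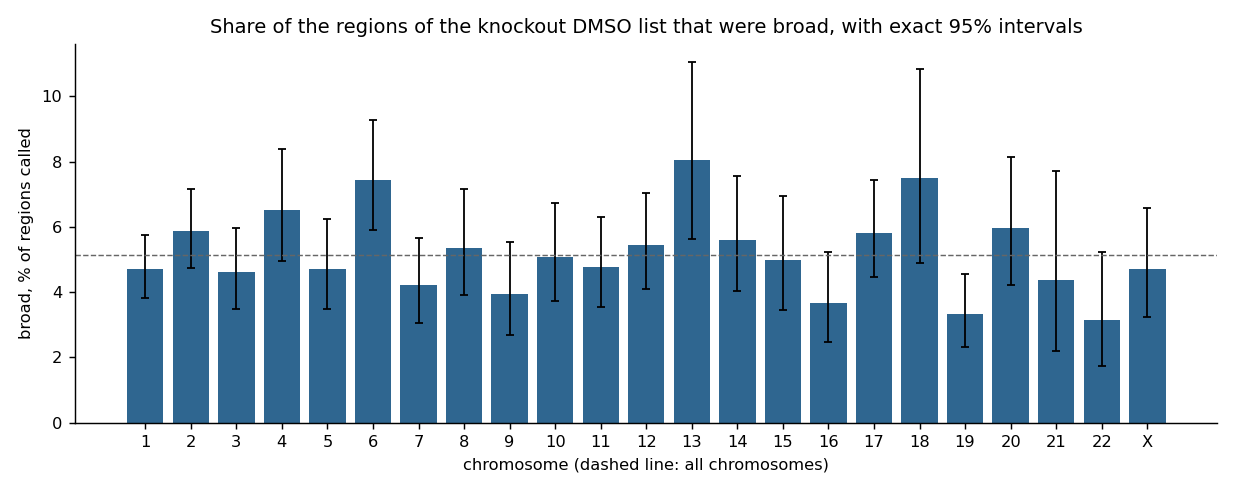
Percent of the regions called in the knockout DMSO list that were broad, for chromosomes 1 to 22 and X, with exact 95% intervals and the 5.13% of all chromosomes as a dashed line. Chromosome 13 was highest at 8.04% and chromosome 22 lowest at 3.16%.

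Broad regions had somewhat fewer close neighbours than the others, while the number of regions within 500 kb was similar. The nearest neighbouring region of the list lay a median of 34009.5 bp from a broad region and 26471.5 bp from one of the others. A neighbour within 10 kb was found for 191 broad regions (18.7%, 95% interval 16.3% to 21.2%), against 23.3% (22.7% to 23.9%) of the others. A median of 10 and 11 regions lay within 500 kb. Of the broad regions, 21 lay within 10 kb of another broad region, beside the 191 with any neighbour that close and a broad share of 5.13% among called regions. Whether 21 is more or fewer than that share would give was not tested. They include the broad regions on chromosome 2 described below. The median distance to the nearest broad region was 594626 bp.

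One group of broad regions was set apart by position. On each chromosome the longest stretch between regions was found, and 35 broad regions (3.42%, 95% interval 2.39% to 4.72%) lay within 1 Mb of it, against 335 of the others (1.77%, 1.59% to 1.97%). In this build the centromeres are largely unsequenced, so that no read can be placed there. Which of these stretches are such gaps was not tested. Repeats beside a centromere can stand in a build in fewer copies than in the cells, and such a place then gathers the reads of all copies, so a high pileup there need not mean more open chromatin. No repeat annotation of this build was used, and the part of such repeats in the widths and heights of these regions was not tested. Directly at the end of such a stretch lay chr1:121484085-121485429, chr2:92324321-92325865, chr6:58776264-58779538, chr17:22259693-22261872 and chr19:27731933-27733442.

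These 35 regions held most of the tallest broad peaks. Their median height in knockout DMSO was 267 times background, with a range from 11.3 to 5659, against 37.6 in the other 989 broad regions. Of the 31 broad regions at 100 times background or more, 21 were among the 35. The 5 regions at the very end of a stretch stood at 5659, 828, 729, 493 and 1489 times background in the order given above. The fold over the surroundings differed far less, with medians of 7.23 for the 35 and 6.27 for the 989.

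Their height also changed little between the parental libraries. The median log2 height of the 35, treated over DMSO, was 0.04, 0.10, 0.14 and 0.08 for 2 h, 4 h and 6 h prexasertib and for camptothecin, where the other broad regions had 0.16, 0.58, 0.99 and 0.81. In knockout cells the medians were -0.04, -0.02, 0.18 and 0.11 near the stretch and 0.12, 0.13, 0.07 and -0.20 elsewhere. The interquartile ranges at 6 h in parental cells, -0.05 to 0.44 and 0.68 to 1.25, did not overlap. The split by position was made after seeing the data, and the difference was not tested.

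On chromosome 2, 6 broad regions lay between positions 92290079 and 92325865. One of them, chr2:92296029-92298146, was 2075 to 2108 bp wide in the 10 lists, with 5 summits in knockout DMSO. At 3 of its neighbours the height in knockout DMSO was 403, 467 and 574 times background, beside a fold of only 3.18, 3.65 and 4.37. On chromosome 10, chr10:42398516-42400750 was 1 peak of 2215 to 2234 bp in 7 lists, but 3 peaks with the longest 638, 629 and 636 bp in the parental 4 h, 6 h and camptothecin lists, those with the shortest joining distances. Its height was between 1744 and 2190 times background in all 10 lists. On chromosome 8, chr8:46848222-46850440 was 1 peak of 2015 to 2206 bp in 4 lists and 2 peaks in 6, the longest 1364 to 1480 bp. Without the 35 regions the results above moved little: 98.4% of the remaining 989 were called in parental DMSO, their median width there was 1081 bp and 9.87% were split.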

How the data were processed

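Each of the 10 ATAC-seq libraries has 1 peak list in narrowPeak layout, without a header. Build hg19 was used, and the submitters' processing notes list MACS2 2.1.2, BWA 0.7.17, Picard 2.9.2, SAMtools 1.8, Trimmomatic 0.39 and Trim Galore 0.6.2, without their roles. Their parameters, and any read shifting or duplicate removal, are not given in the sources used here. For each summit the authors deposited a score, a fold over the local background, and a −log10 p-value and −log10 q-value, with the peak's start and end and the summit offset. A peak with several summits fills several lines.

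A whole pileup was solved from the deposited fold and −log10 p-value, within 0.001 or a relative 1e-05 of the latter, for 99.933% to 100% of the summits of a list. The smallest local background found is the library's background pileup, and height is the highest summit pileup of a region divided by it. Regions are those of the report, width is that of the longest peak of a list in a region, and a change counts from 1.5-fold in regions called in both lists. Positions are 1-based.

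Shares have exact (Clopper-Pearson) 95% intervals. No test was made, since each group has 1 library and regions do not replicate it. The steps were tested on simulated lists. Python 3.11.15 with numpy 2.4.6, pandas 2.3.3, scipy 1.17.1 and matplotlib 3.10.9 was used. The members and the comparisons were chosen with earlier results of these data known. Regions were named by rule: the 10 widest, the 5 with most summits, the 5 widest with 1 summit, the 5 whose width in treated parental lists was most above and the 5 most below that of parental DMSO, the 5 with most peaks over the 10 lists, up to 5 not called in parental DMSO, and 5 on each side of 1200 bp. Lists of genes and cell-type markers had been set out, but were not used here for want of an annotation of the files' build. Alternatives were other minimum widths, a stricter q-value, joined lists without the truncated library, 50% reciprocal overlap, summed widths, the fold or undivided pileup as height, comparison regions of like fold, 1 joining distance, leaving out regions near long stretches without regions, and choosing in parental DMSO.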

Additional observations from a re-analysis of the deposited data

Results flagged for a closer look

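In 3 of the 4 treatments the median width change of broad regions had opposite signs in the 2 lines. At 2 h of prexasertib the median log2 width, treated over DMSO, was -0.0195 in parental and 0.0348 in knockout cells. At 4 h it was 0.0652 and -0.0003, the latter not distinguishable from 0. With camptothecin it was 0.151 and -0.0858. For camptothecin the median log2 height also differed in sign, at 0.80 in parental and -0.19 in knockout cells. The camptothecin signs were not particular to broad regions. Over all regions called in both lists the medians were 0.22 and -0.03 for width and 0.78 and -0.20 for height. The widths over all regions did not differ in sign at 2 h, with 0.003 and 0.18, or at 4 h, with 0.09 and 0.09. Each value compares 1 library with 1 library, and the difference between the lines was not tested. The knockout DMSO list, part of each knockout value, also chose the regions by their width. Such a choice makes the knockout width changes read low, by an amount that was not tested. The opposite width signs in broad regions therefore cannot be read as a difference between the lines.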

How the results depend on the processing

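The number of broad regions, their calling, width, summits and splitting in the DMSO lists, and the parental 6 h and camptothecin changes were recomputed under each alternative. None of these 81 recomputed values changed sign. Only the log2 changes and the differences between broad and other regions could have done so, since counts, shares, widths and summit numbers are never negative. In all, 47 stayed within the 95% interval of the reported value or, for the number of regions, within 1.5 times of it, and 34 moved by more. The differences between broad and other regions have no interval of their own and were held against that of the share split in parental DMSO. A minimum width of 1000 bp gave 2384 regions, a parental DMSO median of 960 bp, splitting of 5.15% in parental DMSO and 11.7% at 6 h, and a log2 height change of 1.00 at 6 h. At 1500 bp there were 270 regions, 99.6% of them called in parental DMSO with a median of 1290 bp there, 3 summits in the median, splitting of 19.7% and 27.0%, log2 height changes of 0.92 and 0.77 and a width change of 0.12 with camptothecin. With only summits of a −log10 q of at least 10, 83.3% were called in parental DMSO, the median width there was 1128 bp and splitting was 1.92% and 7.72%. Summed widths gave a parental DMSO median of 1116 bp. The deposited fold as height gave changes of 0.40 and 0.28, and the undivided pileup 0.88 and 0.62. Reciprocal overlap of 50% left 80.4% called in parental DMSO. Against other regions of like fold, though not of like width or height, the difference in calling was 17.5 percentage points, in place of 28.6. One joining distance gave splitting of 15.2% at 6 h. Regions chosen in parental DMSO numbered 468, with all 100% called and a median of 1344 bp there, splitting of 2.14% in DMSO and 12.8% at 6 h, width changes of 0.0167 at 6 h and 0.0175 with camptothecin, and a height change of 0.92 at 6 h. The cause of these shifts was not tested.

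No paired analysis was possible because each group has 1 library and the labels carry no replicate numbers. Read depth is known only through the background pileup, so a region not called in a list was only not detectable at that depth.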
